A study of Homo sapiens with 6 samples.

Results

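TNRC18, BAHCC1 and BAHD1 encode nuclear proteins with a bromo-adjacent homology (BAH) domain, and all 3 held peaks in the deposited lists of RNA enriched for N1-methylguanosine (m1G). The members were chosen from those peak values, by taking every peak inside the GRCh38 spans of the 3 genes, so their peak counts, fold enrichments and scores are given as a description and were not tested. The spans held 40 of the 18431 peaks of one list, made with MeTDiff, and 17 of the 6264 summits of the other, made with MACS2. A MeTDiff peak is a stretch of transcript, with its strand and with blocks where it skips bases, and its fold is the ratio of precipitate over input. A MACS2 summit is a position of 1 bp without a strand, and its score is a −log10 significance value, with no statement of whether p or q.

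PANC-1, the source of the RNA, is an established human cell line grown from a pancreatic ductal adenocarcinoma. Cells depleted of TRMT5 with siRNA for 4 days gave 2 m1G precipitates and 1 input, and control siRNA cells likewise gave 2 m1G precipitates and 1 input, all from polyA+ RNA cut into short fragments. The 2 lists belong to the series as a whole and mark no library or condition, so no value below has a replicate error or separates depleted from control cells. Depth per library is unknown, since the lists carry no read counts. Of 6 ductal epithelial markers 4 had a MeTDiff peak (KRT8, KRT18, KRT19 and EPCAM, not KRT7 or CDH1), and of 11 markers of acinar, islet, blood and endothelial cells 1 had a peak (CD68), against 31.4% of all protein-coding genes. A missing peak shows neither a missing transcript nor missing m1G.

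BAH domains occur in proteins that bind modified histone tails, and several of them read marks of silent chromatin. BAHCC1 binds histone H3 trimethylated at lysine 27, the mark set by Polycomb repressive complex 2, and TNRC18, its paralog, binds H3 trimethylated at lysine 9 and represses endogenous retroviral elements. BAHD1 is a smaller protein that promotes heterochromatin and gene silencing together with histone deacetylases. The methyltransferase TRMT5 places m1G beside the anticodon of tRNAs, and the study asked which mRNAs carry m1G as well.

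The starts of the 3 genes are shown because they have a short motif in common that the choice of genes did not use. In TNRC18 and BAHD1 a peak also lay near the start, but no window printed here holds a base of a peak block of its gene. The motif is therefore not a feature of enriched sequence here. Each window runs from 250 bases before to 50 bases after a gene start (RefSeq, GRCh38.p14), on the strand of the gene. Capitals mark CCAAT or its reverse complement ATTGG, and GGGCGG or its reverse complement CCGCCC, searched on both strands.
TNRC18, chr7:5423785-5424084, minus strand: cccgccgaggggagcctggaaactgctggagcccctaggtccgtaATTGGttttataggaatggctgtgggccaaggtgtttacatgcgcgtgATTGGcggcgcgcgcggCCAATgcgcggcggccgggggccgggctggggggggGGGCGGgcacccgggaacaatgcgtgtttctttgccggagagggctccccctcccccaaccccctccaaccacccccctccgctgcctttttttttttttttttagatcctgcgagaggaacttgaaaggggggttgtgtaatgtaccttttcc
BAHCC1, chr17:81395207-81395506, plus strand: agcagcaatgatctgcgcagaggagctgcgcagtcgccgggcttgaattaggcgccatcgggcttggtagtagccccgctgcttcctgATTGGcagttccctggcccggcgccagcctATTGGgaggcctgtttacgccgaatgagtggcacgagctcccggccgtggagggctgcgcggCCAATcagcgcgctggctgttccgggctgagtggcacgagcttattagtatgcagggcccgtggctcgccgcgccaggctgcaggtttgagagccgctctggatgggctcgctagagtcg
BAHD1, chr15:40440703-40441002, plus strand: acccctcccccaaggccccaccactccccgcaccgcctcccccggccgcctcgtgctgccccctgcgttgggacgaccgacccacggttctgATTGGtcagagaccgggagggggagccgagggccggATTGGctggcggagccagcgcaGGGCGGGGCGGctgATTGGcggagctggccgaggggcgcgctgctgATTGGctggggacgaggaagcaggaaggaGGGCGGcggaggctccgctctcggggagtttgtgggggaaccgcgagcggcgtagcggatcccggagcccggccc
The TNRC18 window held 3 CCAAT motifs and 1 GGGCGG, the BAHCC1 window 3 CCAAT and 0 GGGCGG, and the BAHD1 window 4 CCAAT and 3 GGGCGG, of which a pair share a base. Among 35116 such windows of all genes, 34.6% held CCAAT at least once, 3.26% held it 3 or more times, and 45.0% held GGGCGG. The limit of 3 was set after the counts had been seen. The GC content was 62.0% for TNRC18, 65.3% for BAHCC1 and 74.3% for this BAHD1 window, against a median of 58.7% over all windows. A match of letters describes the window and shows no binding. BAHD1 has 2 further windows, with 1 and 0 CCAAT motifs. The one with 0 (40441160 to 40441459) is the window that the 5′-most BAHD1 peak reaches.

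Peak counts separated the 3 genes. TNRC18 (chromosome 7, 5306811 to 5423834, minus strand) held 17 MeTDiff peaks inside its span and 12 MACS2 summits. BAHCC1 (chromosome 17, 81395457 to 81466331, plus strand) held 14 MeTDiff peaks and 2 summits. BAHD1 (chromosome 15, 40437452 to 40468236, plus strand) held 9 MeTDiff peaks, 8 of them on its own strand, and 3 summits. Of all protein-coding genes 31.4% had a MeTDiff peak and 15.5% a summit, and since the 3 genes were taken for having peaks, nothing follows from the difference. By gene name, which adds to TNRC18 a peak that crosses its 5′ end, only 4 of 6303 protein-coding genes with a MeTDiff peak had 18 or more, TNRC18 included. The numbers with at least as many peaks were 13 genes for BAHCC1 and 166 for BAHD1, and the median gene had 2 peaks.

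The order of the 3 genes was not the same for summits. Of the 3110 protein-coding genes with a summit, 8 had 12 or more, TNRC18 among them, 424 had at least the 3 of BAHD1 and 1018 had at least the 2 of BAHCC1. BAHCC1 thus stood in the top 0.206% of the 6303 genes with a MeTDiff peak, by number of peaks. By number of summits it stood in the top 32.7% of the 3110 genes with a summit, where the median gene had 1. Of the 5 other genes with 14 MeTDiff peaks, 2 had 2 summits or fewer, with a median of 9 and a range from 1 to 15. Of the 69 other genes with the 8 peaks of BAHD1, the median number of summits was 2, from 0 to 12.

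**Figure D1:**
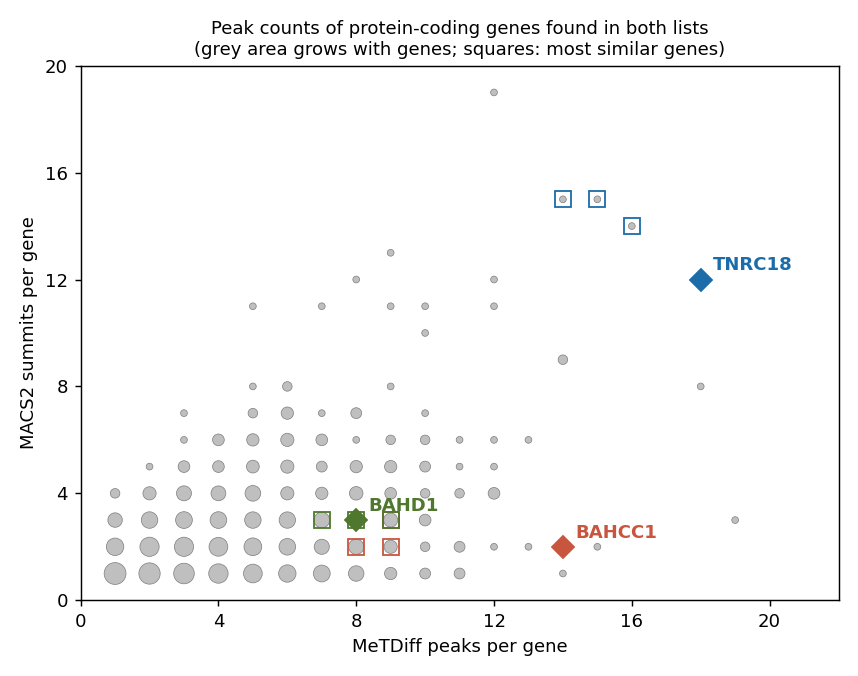
Number of MeTDiff peaks (x axis) and MACS2 summits (y axis) per gene for 2848 protein-coding genes found in both lists, drawn as grey circles whose area grows with the number of genes at that point. Diamonds are TNRC18, BAHCC1 and BAHD1, and open squares are the 3 genes most like each of them. TNRC18 lies at the upper right, BAHCC1 far to the right at 2 summits, and BAHD1 at 8 peaks and 3 summits.

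Relative to the length of the genes the order was turned round. TNRC18 spans 117.0 kb, BAHCC1 70.9 kb and BAHD1 30.8 kb, which makes 1.45, 1.98 and 2.60 own-strand peaks per 10 kb. The peak blocks covered 4258 bp of TNRC18, 2910 bp of BAHCC1 and 1858 bp of BAHD1, or 3.64%, 4.11% and 6.04% of their spans. The spans include introns, and exonic length was not used here. Of the 39 own-strand peaks, 15 joined several blocks (38.5%), against 33.1% of all peaks. They were 7 in TNRC18, 6 in BAHCC1 and 2 in BAHD1.

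TNRC18, the H3K9me3 reader, had its highest folds in a peak at its start, in the first peak after a long peak-free stretch, and in a peak towards its 3′ end. At its 5′ end a peak of 12.4-fold crossed the start of the gene. Its FDR, 0.0288, was the weakest of the TNRC18 peaks, the others having at most 0.00631. This peak joined a block of 77 bp at 5423470 to 5423546 with one of 24 bp at 5425291 to 5425314, which lies upstream of the RefSeq start, and the promoter window printed above lies in the skipped stretch between them. A summit with a score of 16.5 stood at 5423674, also in the skipped stretch, 160 bp into the gene and 128 bp from the nearer block. After it came 34.2 kb without any peak or summit.

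The next TNRC18 peak, the 5′-most of the 17 that lie wholly inside the span, had the highest fold of the gene. It covered 400 bp at 5388832 to 5389231 with a fold of 13.6, rank 1130 of the list, an FDR of 0.000204 and a summit of score 37.4. A weaker neighbour at 5388483 to 5388733 had 4.0-fold. Then followed a peak of 3 blocks between 5377444 and 5387934 with 7.18-fold, another of 3 blocks between 5374397 and 5376917 with 5.29-fold, and a short one with 3.25-fold. The longest peak of the gene, 700 bp in 1 block at 5370559 to 5371258, had 7.36-fold and held the summit of highest score among the 3 genes, 46.3 at 5370968. That score ranked 332 among the 6264 summits.

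In the middle of TNRC18 enrichment was low. The seventh, eighth and ninth peaks had folds of 1.72, 1.3 and 1.93, below the median of the list, 4.24. A summit of score 21.4 at 5357306 stood apart from all of them, 4415 bp from the nearest block. Towards the 3′ end the folds were higher again. A peak of 2 blocks between 5332789 and 5345650 had 4.83-fold and a summit of score 31.6, and one of 4 blocks between 5320554 and 5325176 had 9.52-fold and the lowest FDR of the 3 genes, 1.17e-05.

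The last 6 TNRC18 peaks lay in the final stretch of the gene and held no summit. Their folds were 3.67, 4.83 and 2.74 between 5312763 and 5315076, and 1.87, 1.82 and 5.44 between 5307488 and 5308287. The span of TNRC18 overlaps that of SLC29A4 by 102 bp at the 3′ end, but no TNRC18 peak reaches that overlap. The antisense gene TNRC18-AS1 and the pseudogenes TNRC18P1, TNRC18P2 and TNRC18P3 had 0 peaks and 0 summits. How the authors treated reads that fit several copies is not given in the sources used here.

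**Figure D2:**
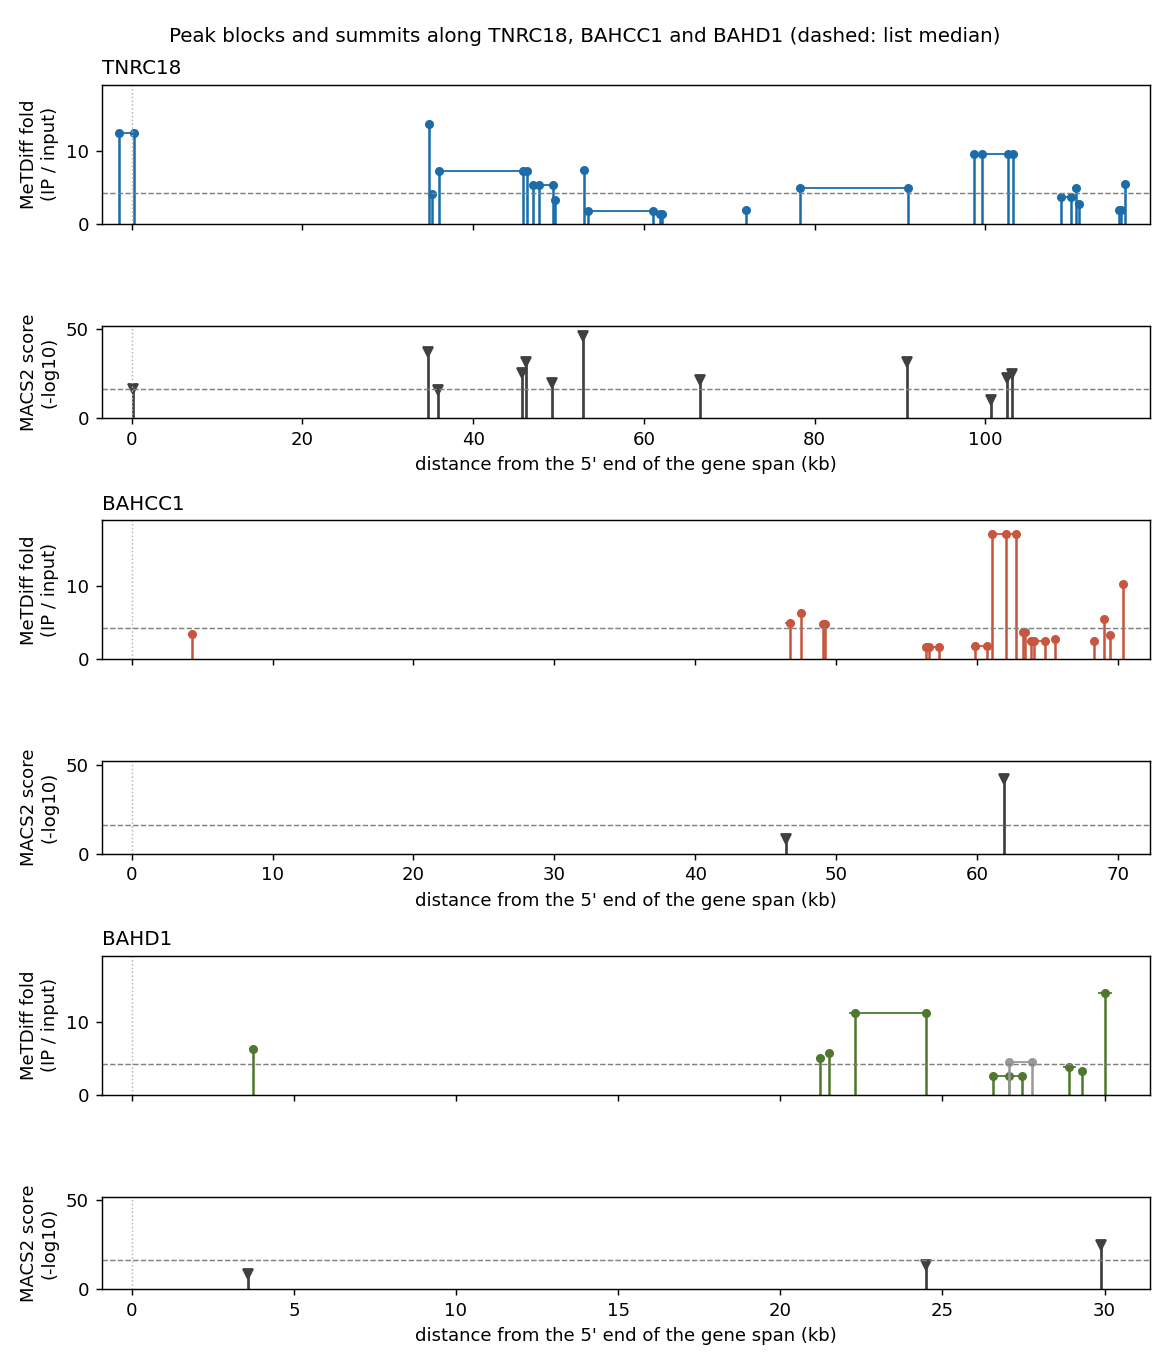
Distance from the 5′ end of each gene span in kb (x axis) with the fold of the MeTDiff peaks (upper panel of each gene, each block a stem and the blocks of a peak joined by a line) and the score of the MACS2 summits (lower panel). The dashed lines are the list medians, 4.24 for folds and 16.4 for scores, and the grey peak in BAHD1 lies on the opposite strand. The 5′-most peak crosses the start in TNRC18 and lies 4.32 kb into the span in BAHCC1 and 3.73 kb in BAHD1. The BAHD1 span begins upstream of the gene start whose window is printed in the text. In each gene a long stretch without peaks follows, then most of its peaks.

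BAHCC1, the H3K27me3 reader, had 1 dominant peak. Its 5′-most peak, at 81399722 to 81399822, 4.32 kb into the gene, had a fold of 3.5 and the weakest FDR of the set, 0.0437. Its MeTDiff p-value was 0.0036, yet peaks of TNRC18 and BAHD1 with 0.0035 had an FDR of 0.00631. The deposited FDR thus did not strictly follow the p-value across genes, and the reason was not determined. After 42.1 kb without a peak, or 59.4% of the span, came 3 peaks of 4.88-fold, 6.35-fold and 4.75-fold between 81441937 and 81444732. A pair of weak ones followed, with 1.67-fold and 1.73-fold.

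The dominant peak joined 3 blocks between 81456467 and 81458312 and had 17.1-fold enrichment, the largest of the 3 genes and rank 644 of the list (FDR 0.000537). The stronger of the 2 BAHCC1 summits, with a score of 41.9 and rank 460, stood at 81457346 inside the reach of this peak, in the stretch skipped before its middle block and 64 bp from that block. The other summit, with a score of 8.19 at 81441936, missed the start of a 4.88-fold peak by 1 bp.

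The remaining BAHCC1 peaks ran to the end of the gene. Directly after the dominant peak the folds were 3.73, 2.5 and 2.71, then 2.5, 5.46 and 3.37. The last peak, at 81465733 to 81465983 and 99.3% of the way along the span, was the second strongest with 10.3-fold (FDR 0.00219), and no summit was called there.

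BAHD1 had its strongest enrichment at the 3′ end, in a peak found by both callers. Its 5′-most peak, at 40441108 to 40441258, 3.73 kb into the span, had 6.25-fold. The BAHD1 window printed above ends at 40441002, shortly before this peak. The peak is thus near the gene start of that window, though far from the start of the span. A summit of score 8.63 stood 78 bp before the peak, at 40441030. Of this peak 99 bp lie in a further RefSeq promoter window of the gene (40441160 to 40441459), and these bases are 80.8% G or C. The last 30 bases of the peak (chr15:40441229-40441258, plus strand) are printed as a sample of enriched sequence.
BAHD1 peak end: GCGGGCGCCCAGAGCCGCGCCGTCCGCGCC
The capitals mark bases inside the peak. For the other peaks no sequence is printed.

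After 17.3 kb without a peak, BAHD1 had 5.06-fold and 5.67-fold at 40458590 to 40459040. The peak of 2 blocks between 40459589 and 40462004 had 11.2-fold and held a summit of score 13.8 in its second block. Weaker peaks of 2.5-fold, 3.83-fold and 3.2-fold came before the last, which covered 351 bp at 40467286 to 40467636 with 13.9-fold (FDR 0.000708) and a summit of score 25.0. A peak of another gene ID, ENSG00000259211, with 4.4-fold on the opposite strand between 40464484 and 40465223, shared bases with the 2.5-fold BAHD1 peak. It was the only peak of that ID, and how reads were divided between the strands there is not given in the sources used here.

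The median folds of the 3 genes lay around that of the list, while TNRC18 had a larger share of peaks under 2-fold. Medians were 4.0 in TNRC18 (n = 17), 3.62 in BAHCC1 (n = 14) and 5.37 over the own-strand peaks of BAHD1 (n = 8), against 4.24 over all 18431 peaks. Of the 39 peaks 19 lay above the list median and 8 above its upper quartile, 6.91. TNRC18 had 5 of its 17 peaks under 2-fold and BAHCC1 2 of 14, while BAHD1 had 0 of 8, against 9.25% of the list. Within a gene the folds ranged from 1.3 to 13.6 in TNRC18, from 1.67 to 17.1 in BAHCC1 and from 2.5 to 13.9 in BAHD1, so the ranges of the 3 genes overlapped.

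**Figure D3:**
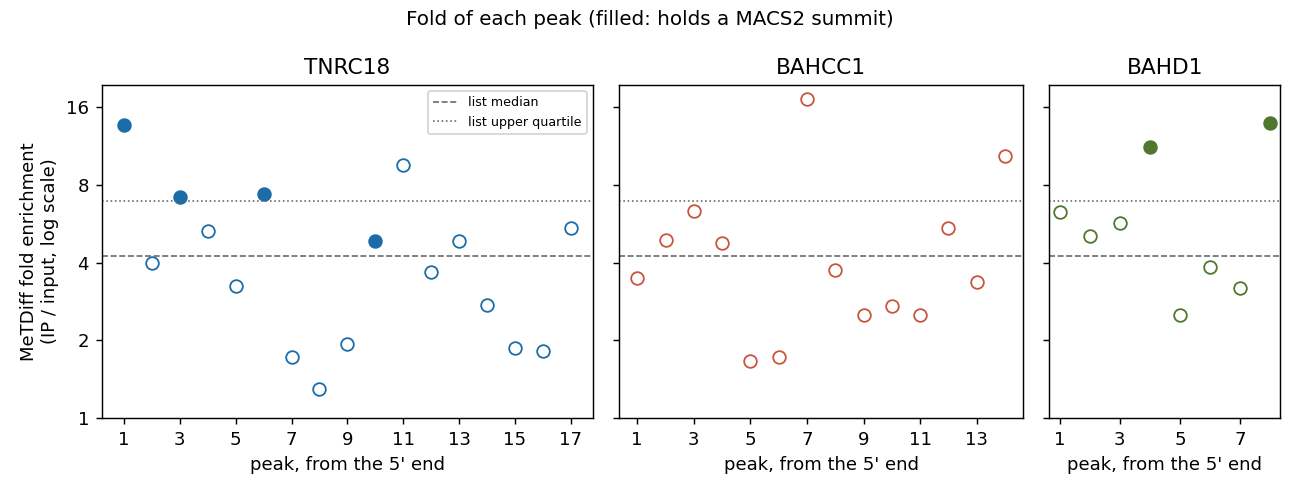
Fold enrichment of precipitate over input (y axis, log scale) for each own-strand peak wholly inside the span, in order from the 5′ end (x axis), with filled circles for peaks that hold a MACS2 summit. Dashed and dotted lines are the median (4.24) and upper quartile (6.91) of the MeTDiff list. Filled circles lie above the median in TNRC18 and BAHD1, and BAHCC1 has none.

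Several peaks of a gene carried the same p-value, so the peaks were not taken as independent calls. The 17 TNRC18 peaks had 7 distinct p-values, and 8 peaks with folds from 1.3 to 7.36 shared the value 3.8e-06. BAHCC1 had 9 distinct values among 14 peaks, and BAHD1 4 among 8. A peak of 2.5-fold in BAHCC1 shared its p-value, 0.00013, with the 17.1-fold peak. Such sharing occurred in 43.0% of all gene IDs with 2 or more peaks (interval 41.5 to 44.5). Among peaks of a gene that share a p-value, the p-value and FDR therefore give no rank, whereas the folds of such peaks differed. Across different p-values some folds were equal, at 4.83 in TNRC18 and at 2.5 in BAHCC1.

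Agreement between the lists was partial. A summit lay inside a peak block for 4 of 12 summits in TNRC18 (33.3%, interval 13.8 to 60.9), 0 of 2 in BAHCC1 (interval 0 to 65.8) and 2 of 3 in BAHD1 (66.7%, interval 20.8 to 93.9). Together this was 6 of 17 (35.3%, interval 17.3 to 58.7), and over the whole list 2209 of 6264 (35.3%, interval 34.1 to 36.5). Intervals are 95% Wilson intervals and cover counting error only. They treat each summit or peak as an independent draw. Calls of a gene need not be independent, so the intervals can be too narrow, and the shares over the whole list count every entry. In the other direction 6 of the 39 peaks held a summit (15.4%, interval 7.25 to 29.7), against 12.4% of all peaks (interval 11.9 to 12.8) and 20.8% of the peaks in genes found in both lists.

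Most summits outside a block were close to one. In TNRC18 the distances of the 8 outside summits, from the 5′ end, were 128, 103, 64, 58, 4415, 1029, 99 and 10 bp. In BAHCC1 they were 1 and 64 bp, and in BAHD1 78 bp. With each summit widened by 50 bp, 8 of the 17 touched a block (47.1%), against 60.9% over the whole list. With 150 bp, a width chosen after the distances were seen, it was 15 of 17 (88.2%), against 80.7%. The whole reach of a peak, skipped stretches included, held 14 of 17 (82.4%), against 53.1%, and in TNRC18 alone 11 of 12 summits. These percentages have not been tested against each other.

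**Figure D4:**
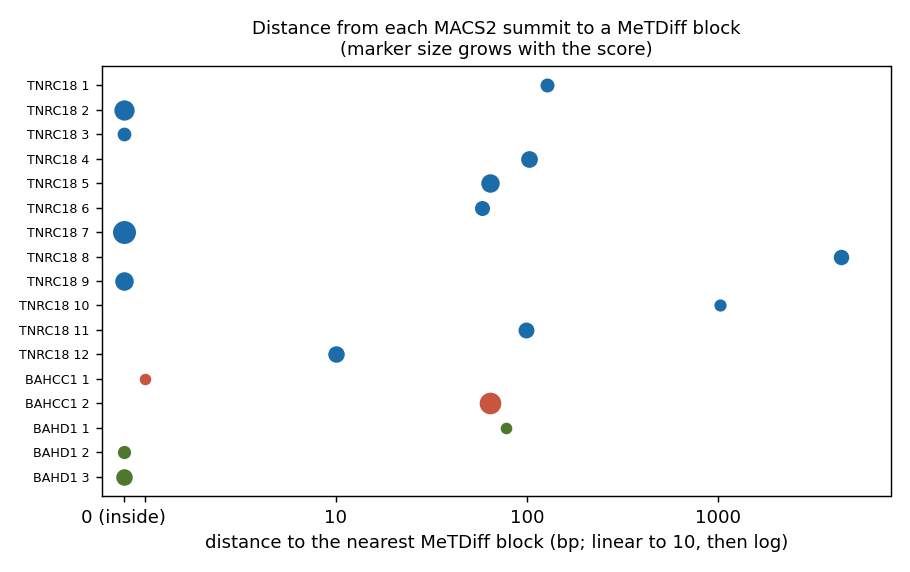
Distance in bp from each MACS2 summit to the nearest MeTDiff block (x axis, linear to 10 and logarithmic beyond), with the summits of each gene numbered from the 5′ end and marker size growing with the score. Of the 17 summits 6 lie inside a block, and 2 summits of TNRC18 lie more than 1000 bp away.

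Peaks that held a summit had the higher median fold in TNRC18 and BAHD1, a difference that was not tested. In TNRC18 the 4 such peaks had folds from 4.83 to 13.6 with a median of 7.27, and the other 13 from 1.3 to 9.52 with a median of 3.25. In BAHD1 the 2 such peaks had 11.2-fold and 13.9-fold, above the other 6, which ran from 2.5 to 6.25. The same held over the list, where 2277 peaks with a summit had a median of 7.79 and 16154 without one had 3.88. Both lists come from the same series, and whether the same libraries entered them is not stated, so fold and summit were not taken as independent measures. Scores did not follow folds in order: the highest TNRC18 score, 46.3, lay in a peak of 7.36-fold, and the highest fold, 13.6, held a score of 37.4.

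Along BAHCC1 and BAHD1 the peaks lay mostly towards the 3′ end, and along TNRC18 less so. Past the midpoint of the span lay 10 of 17 peaks in TNRC18, 13 of 14 in BAHCC1 and 7 of 8 in BAHD1. With the peak that crosses the start of TNRC18 counted, so with 18 peaks there, the longest stretch without a peak followed the 5′-most peak in each gene, and it took 29.3% of the span in TNRC18, 59.4% in BAHCC1 and 56.3% in BAHD1. Without that peak the longest stretch between TNRC18 peaks was 9.76 kb. Among the 163 other protein-coding genes with 8 or more peaks the median gene had 77.8% of its peaks past the midpoint. TNRC18, with 18 peaks, had 55.6%, below that median, and BAHCC1 had 92.9% and BAHD1 87.5%. In the 163 other genes the longest stretch had a median of 24.0% of the span, and it followed the 5′-most peak in 62 genes (38.0%). Transcript models were not used, so whether these stretches are introns was not determined here.

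Genes most like each member were found among the 2848 protein-coding genes with both kinds of peak, by the distance over 4 standardised measures, which were the numbers of peaks and summits, the median fold and the highest score. For TNRC18 they were the kinase gene AKT2 (distance 0.48, 16 peaks and 14 summits), the basement membrane proteoglycan gene AGRN (0.569, 14 and 15) and the cytolinker gene PLEC (0.664, 15 and 15). For BAHCC1 they were POLR2A, which encodes the largest subunit of RNA polymerase II (0.803, 9 peaks and 2 summits), SGSM2 (1.05, 9 and 3) and the scaffold gene DLG5 (1.12, 8 and 2). BAHD1 had closer neighbours in the co-chaperone gene DNAJB2 (0.31, 8 and 3), MAPK8IP2, a scaffold gene of JNK signalling (0.325, 7 and 3), and the exchange factor gene TRIO (0.376, 9 and 3). No gene came as near to BAHCC1 as these did to TNRC18 or BAHD1.

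Other genes with a BAH domain had fewer peaks, but TNRC18, BAHCC1 and BAHD1 were chosen from these same peak values, so nothing follows from the difference. Of the 8 remaining members of that family 7 had a MeTDiff peak and 3 a summit, with 19 peaks and 8 summits in all, against 31.4% and 15.5% of protein-coding genes. MTA1, a subunit of the nucleosome remodelling and deacetylase (NuRD) complex, had 4 peaks, with a median of 10.2-fold and a largest fold of 18.0, and 6 summits, 1 of them inside a peak. The maintenance DNA methyltransferase gene DNMT1 had 5 peaks, up to 8.22-fold, and 1 summit of score 33.7 outside them. The histone methyltransferase gene ASH1L had 4 peaks up to 7.83-fold and 0 summits. ORC1, a subunit of the origin recognition complex, had neither.

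Of 30 genes for partners and for the silencing marks these proteins read, 19 had a MeTDiff peak (63.3%) and 6 a summit (20.0%), against 31.4% and 15.5% of protein-coding genes. The share with a summit was thus near that of all genes. TRIM28, the corepressor that recruits the H3K9 methyltransferase SETDB1, had 3 peaks, up to 27.8-fold. It had 5 summits that reached a score of 51.9, with 1 of them inside a peak. SIN3B, a scaffold of deacetylase complexes, had 8 peaks, up to 12.0-fold, and 2 summits, both inside peaks. The H3K9 methyltransferase gene EHMT1 had 6 peaks up to 5.9-fold, MIER2 4 up to 2.83-fold and SAP30BP 4 up to 5.64-fold, all with 0 summits. The deacetylase complex gene SAP30 had 2 peaks and 1 summit, which lay inside a peak. The heterochromatin protein 1 gene CBX3 had 2 peaks and 2 summits, with 1 of them inside a peak.

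Among the listed genes without a peak or summit under their name were EZH2, EED and SUZ12, the core subunits of Polycomb repressive complex 2. HDAC2, NCOR1 and CBX5 had none either. EZH1, which can take the place of EZH2, had 1 peak of 9.0-fold. Since most protein-coding genes have neither, these absences are not a result about the complex. Peaks and summits that fitted more than 1 gene were left unnamed, so a listed gene can lack them for that reason too. The lists hold no expression values, so a gene with few reads and a gene without m1G cannot be told apart.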

How the data were processed

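Analysis began from 2 deposited peak lists of the series, which mark no sample, from m1G precipitates and inputs of PANC-1 cells. Per the submitters' processing notes the build was GRCh38 and the tools included STAR 2.7.1 and MACS2 2.2.5, with roles, settings and pooling not given in the sources used here. The authors' MACS2 list gives for each summit a −log10 value, of a p-value or of a q-value. Their MeTDiff list gives a deposited p-value per peak, the log10 of the FDR (deposited as log10) and the fold enrichment, a ratio. What each column means was inferred from its place and its values. Neither list carries counts, so depth is unknown.

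A peak belonged to one of the 3 genes when it lay wholly inside the RefSeq span (GRCh38.p14), and a summit when its position did. Positions are 1-based. For other genes an Ensembl ID took the name of the only span that overlapped all of its peaks (6518 of 8386 IDs). A summit was inside a peak when it lay in one of its blocks (1 bp). Overlap functions were tested on simulated intervals (Python 3.11.15, scipy 1.17.1). Members and gene lists were chosen with earlier results of these data known. Genes named were the 3 members, listed genes with 4 or more peaks or a summit in a peak, and the 3 nearest genes of each member, while the paragraphs on other list genes also name some that this rule leaves out, chosen after their values were seen. The values of 1 listed gene are not reported here. Protein comparison had been planned and was not run, since protein sequences were not used here. Alternatives changed the FDR and fold limits, strand, overlap and ranking.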

Additional observations from a re-analysis of the deposited data

How the results depend on the processing

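Of 57 alternative values for the 3 genes, 50 stayed within 1.5 times the value given, or, for shares of summits and peaks, within its 95% Wilson interval. Several alternatives removed nothing, such as the limit to the own strand in TNRC18 and BAHCC1, so they could not move a value. The BAHCC1 share of summits inside peaks rose from 0 of 2 to 50.0% with the whole reach of a peak and still counted as within its interval. The count of 50 is therefore no measure of robustness. The share of TNRC18 summits inside a MeTDiff peak was 33.3% and became 91.7% when the whole reach of a peak counted, and 83.3% when summits were widened by 150 bp, a width chosen after seeing the data. With that width it was 100.0% in BAHCC1 (from 0 of 2) and 100.0% in BAHD1 (66.7% by blocks), and BAHD1 also reached 100.0% in the upper parts of both lists, where 1 summit was left. With scores at or above the list median 1 summit was left in BAHCC1 and 1 in BAHD1. The cause of these shifts was not tested, beyond the wider targets and the fewer summits that the alternatives themselves make. The median fold of BAHD1 was 5.06 over its 9 peaks of either strand and 5.37 over the 8 on its own. No paired analysis was possible because neither list carries a library, a condition or a replicate number, and for the same reason no replicate could be left out. Shares over 2 or 3 summits have wide intervals.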
